A study of Mus musculus with 24 samples.

Results

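Claudins are the membrane proteins of tight junctions that decide which ions pass between the cells of an epithelium. The 10 claudins examined here are those that mark segments of the nephron: Cldn1, Cldn2, Cldn3, Cldn4, Cldn7, Cldn8, Cldn10, Cldn14, Cldn16 and Cldn19. They were chosen by name and taken from the 55335 genes counted in whole kidneys of mice with and without an induced deletion of Pex5 in the renal tubule. In males, where 9.05% of all tested genes passed the test with the deletion, Cldn1 was the only one of the 9 tested claudins that did. It went from 18.3 ± 3.12 CPM in Ctrlm to 11.4 ± 2.56 CPM in cKOm mice (n = 6 per group, SD). No claudin passed the test in females, where 0.851% of all tested genes passed. Between control females and control males Cldn7, Cldn19 and Cldn10 passed, where 16.8% of all tested genes did, with Cldn10 at the edge (edgeR adjusted p = 0.0498). Neither these 3 nor Cldn1 in males passed without the 5 kidneys highest in transcripts of liver genes, a fit that keeps 2 Ctrlm mice.

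The study compared 24 kidneys, 6 in each of 4 groups. cKOm (male) and cKOf (female) mice were Pex5lox/lox/Pax8-rtTA/LC1 animals, in which the Pax8 promoter drives rtTA in renal tubule cells and doxycycline (DOX) switches on the Cre of the LC1 transgene. Ctrlm and Ctrlf mice were Pex5lox/lox littermates without these transgenes, on the same C57BL/6J background. Mice of all 4 groups were 8 weeks old when they began to drink DOX, which lasted 2 weeks, and were examined another 4 weeks later. PEX5 is the receptor that carries enzymes into peroxisomes. Pax8-rtTA is directed at the renal tubule, whereas the RNA of each kidney pooled the cells of tubules, glomeruli, vessels and interstitium. For Pex5 itself the log2 fold change was -0.31 in males (edgeR adjusted p = 0.0219) and -0.21 in females (edgeR adjusted p = 0.177). Every cKOm mouse, at 47.3 CPM or less, lay under every Ctrlm mouse, whereas cKOf mice (38 to 48.5 CPM) and Ctrlf mice (43 to 61.7 CPM) overlapped. These counts thus did not establish a fall of Pex5 RNA in females. How complete the deletion was in each sex cannot be told from counts over the whole gene. The paper separately reports a significant reduction of Pex5 mRNA in both sexes, with some full-length mRNA left in cKOf mice. It also reports less PEX5 protein in cKOf kidneys, and proximal tubules of both sexes with virtually no peroxisomes.

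Each claudin gives its segment a different permeability. Cldn2 forms a pore for cations and water in the proximal tubule, and Cldn10 forms ion pores in the proximal tubule and the thick ascending limb. Cldn16 and Cldn19 act together in the thick ascending limb, where calcium and magnesium are reabsorbed between the cells, and Cldn14 restrains that route. Cldn3, Cldn4, Cldn7 and Cldn8 belong to the distal nephron and collecting duct, where Cldn4 and Cldn8 are linked to a path for chloride. Cldn1 is a barrier claudin, found in the kidney mainly in the parietal cells of Bowman's capsule.

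The depth was 19376152 to 28470831 reads on genes in each kidney. CPM is the count relative to library size, and the levels given here are after TMM scaling. A gene was tested if it reached 1 CPM, before that scaling, in at least 1 kidney, which left 16092 genes and 9 of the 10 claudins. Cldn14 did not reach 1 CPM. The floor of 3 counts lay between 0.0959 and 0.157 CPM, and covers counting error only. Several kidneys held transcripts of liver genes. The summed level of 10 liver markers ranged from 79.9 to 936 CPM in Ctrlm mice (median 602) and from 94.1 to 456 CPM in cKOm mice (median 112). The 10 did not move together, since 4 were lower and 1 was higher in cKOm than in Ctrlm mice, where 9.05% of all tested genes passed. Alb had a mean of 322 CPM in Ctrlm and 62.0 CPM in cKOm mice. Serpina1a, the higher one, had 26.9 and 51.5 CPM (edgeR adjusted p = 0.0435). In Ctrlf mice the summed level ranged from 45.4 to 104 CPM and in cKOf mice from 43.1 to 107 CPM. The 5 kidneys that stood highest were Ctrlm mice 1, 2, 3 and 4 and cKOm mouse 4, and the claudin calls and the counts of markers and tight junction genes are also given without them, which leaves 2 Ctrlm mice. The change of Pex5 in males was then -0.26 on the log2 scale and did not pass (edgeR adjusted p = 0.382). With the mean log2 CPM of the 10 liver markers (the liver score) as a covariate, it was -0.31 and did not pass either (edgeR adjusted p = 0.115).

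Per kilobase of exons, Cldn2 was the most abundant of the 10 claudins in every group, followed by Cldn10 and Cldn8. In Ctrlm mice the levels were 157 ± 12.6 RPKM for Cldn2, 95.2 ± 8.17 RPKM for Cldn10 and 25.8 ± 2.83 RPKM for Cldn8 (n = 6, SD). The ranges of these 3 claudins overlapped neither with each other nor with the next of the 10 in any of the 4 groups. Cldn2 made up 50.2% of the summed RPKM of the 10 claudins in Ctrlm mice and 46.2% in cKOf mice, and Cldn10 made up 30.4% and 28.9%. Cldn12, which is not among the 10, lay between Cldn10 and Cldn8 in every group, at 35.0 ± 2.96 RPKM in Ctrlm mice (n = 6, SD).

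Below Cldn8 the order was close. In Ctrlm mice, Cldn19 stood at 7.43 ± 0.891 RPKM, Cldn3 at 6.73 ± 1.52, Cldn7 at 6.10 ± 1.21, Cldn4 at 5.83 ± 1.14, Cldn16 at 4.68 ± 1.26 and Cldn1 at 3.79 ± 0.645 (n = 6, SD). Each of these overlapped with its neighbour in the order, so neighbours were not separated by their spread. Cldn1 was the lowest of the 9 in each group. In cKOm mice it stood at 2.36 ± 0.529 RPKM, with all 6 kidneys under the lowest value of Cldn16 in that group. The same gap separated Cldn1 from Cldn16 in cKOf mice, but not in the controls of either sex.

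**Figure D1:**
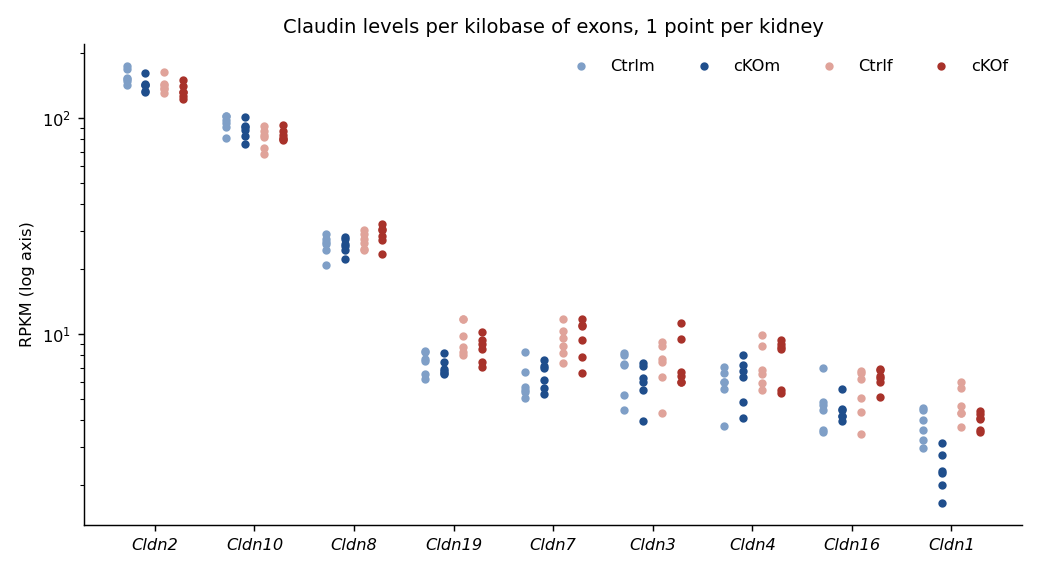
RPKM of 9 claudins (log axis) in each of 24 kidneys, coloured by group, in the order of their mean level. Cldn2, Cldn10 and Cldn8 form separate steps, the other 6 lie between 1.65 and 11.8 RPKM, and the cKOm mice sit lowest for Cldn1. Cldn14 is not drawn, since it had 0 counts in 14 kidneys.

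The spread between mice also differed between claudins. The coefficient of variation within a group had a median over the 4 groups of 7.67% for Cldn2, 9.16% for Cldn10 and 9.62% for Cldn8. It was 23.6% for Cldn3 and 23.5% for Cldn4, which had only 112 to 300 and 138 to 414 counts per kidney. A change of the same size is therefore less easily seen in Cldn3 and Cldn4 than in Cldn2.

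Cldn1 lies on the reverse strand of chromosome 16 (GRCm38, chr16:26356642-26371841). It is the claudin that changed in males, so the 250 bases before its start are shown as RefSeq gives them (GRCm38.p6, chr16:26371840-26372089, reverse strand), with the letters GGGCGG, the core of a GC box, in capitals.

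Cldn1 promoter: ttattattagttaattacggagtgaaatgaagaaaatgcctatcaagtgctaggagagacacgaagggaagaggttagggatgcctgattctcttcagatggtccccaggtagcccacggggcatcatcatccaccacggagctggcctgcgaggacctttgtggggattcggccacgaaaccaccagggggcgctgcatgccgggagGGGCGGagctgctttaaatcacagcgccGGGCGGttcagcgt

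GGGCGG occurs at 42 and 14 bases before the start of Cldn1. It was searched on both strands, together with the TATA box TATAAA, the E box CAGGTG and the nuclear receptor motif AGGTCA, and none of the latter 3 is among the letters of this window. GGGCGG or its reverse complement is in 32.7% of the 32851 promoters of this length. The share is 12.4% for the TATA box, 17.2% for the E box and 14% for AGGTCA, each with its reverse complement.

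Cldn1 was lower in kidneys of cKOm mice than in those of Ctrlm mice. The levels were 19.3, 21.5, 14.3, 17.4, 15.6 and 22 CPM in the 6 Ctrlm mice and 13.4, 7.99, 11.3, 10.9, 9.73 and 15.2 CPM in the 6 cKOm mice. A single cKOm mouse, at 15.2 CPM, lay above the lowest Ctrlm mouse, so the groups overlapped slightly. The log2 fold change was -0.68 (standard error, SE, 0.14; edgeR adjusted p = 0.00238), a level of 0.622 times that of controls with a 95% interval from 0.51 to 0.759. The exact permutation test of the means gave p = 0.00433 (two-sided, 6 mice against 6, where the smallest possible p is 0.00216).

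Cldn1 was thus 1 of 9 tested claudins past the threshold in males, where 9.05% of all tested genes passed it and 4.9% passed it as lower in cKOm mice. No claudin, 0 of 9, had cKOm and Ctrlm mice without overlap, which 7.38% of all genes had. Over those 9, the median log2 fold change was -0.07, and over all tested genes it was 0.01. The median size of the change, regardless of sign, was 0.0951 for the claudins and 0.186 for all genes. The male call of Cldn1 held with each mouse left out in turn (log2 fold change from -0.78 to -0.60) and with the liver score as a covariate (edgeR adjusted p = 0.0194). Without the 5 kidneys high in liver transcripts, which leaves 2 Ctrlm mice, the log2 fold change was -0.74 and the edgeR adjusted p was 0.0639. The 4 Ctrlm kidneys high in liver transcripts had between 14.3 and 21.5 CPM of Cldn1, and the other 2 had 15.6 and 22 CPM.

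In females, Cldn1 had 29.1, 27.4, 22.4, 20.9, 20.8 and 18 CPM in the 6 Ctrlf mice and 19.6, 17.1, 20.6, 19.9, 17.4 and 21.4 CPM in the 6 cKOf mice. The highest 3 values were all from Ctrlf mice, but the groups overlapped between 18 and 21.4 CPM. The female change was -0.26 on the log2 scale (standard error 0.14, 95% interval -0.54 to 0.02, edgeR adjusted p = 0.377). The difference between the female and the male change was 0.43 on the log2 scale (standard error 0.20), with an edgeR p of 0.0378 before and 0.336 after adjustment over all genes. A difference between the sexes in the change of Cldn1 was therefore not established, and 0 of 9 claudins passed that test, against 2.31% of all genes.

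Cldn1 separated the sexes among the cKO mice. Every cKOf mouse, at 17.1 CPM or more, was above every cKOm mouse, at 15.2 CPM or less. Its log2 fold change between cKOf and cKOm mice was 0.76 (SE 0.14, edgeR adjusted p = 5.5e-04), and the exact permutation test gave p = 0.00216 (two-sided, n = 6 per group), the smallest it allows. In this comparison, 6.77% of all genes had no overlap. Among the controls, Cldn1 was 23.1 ± 4.25 CPM in Ctrlf and 18.3 ± 3.12 CPM in Ctrlm mice (n = 6, SD), with a log2 fold change of 0.33 that did not pass (standard error 0.14, edgeR adjusted p = 0.106). In RNA of a whole kidney, fewer cells of a type and less RNA per cell cannot be told apart.

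**Figure D2:**
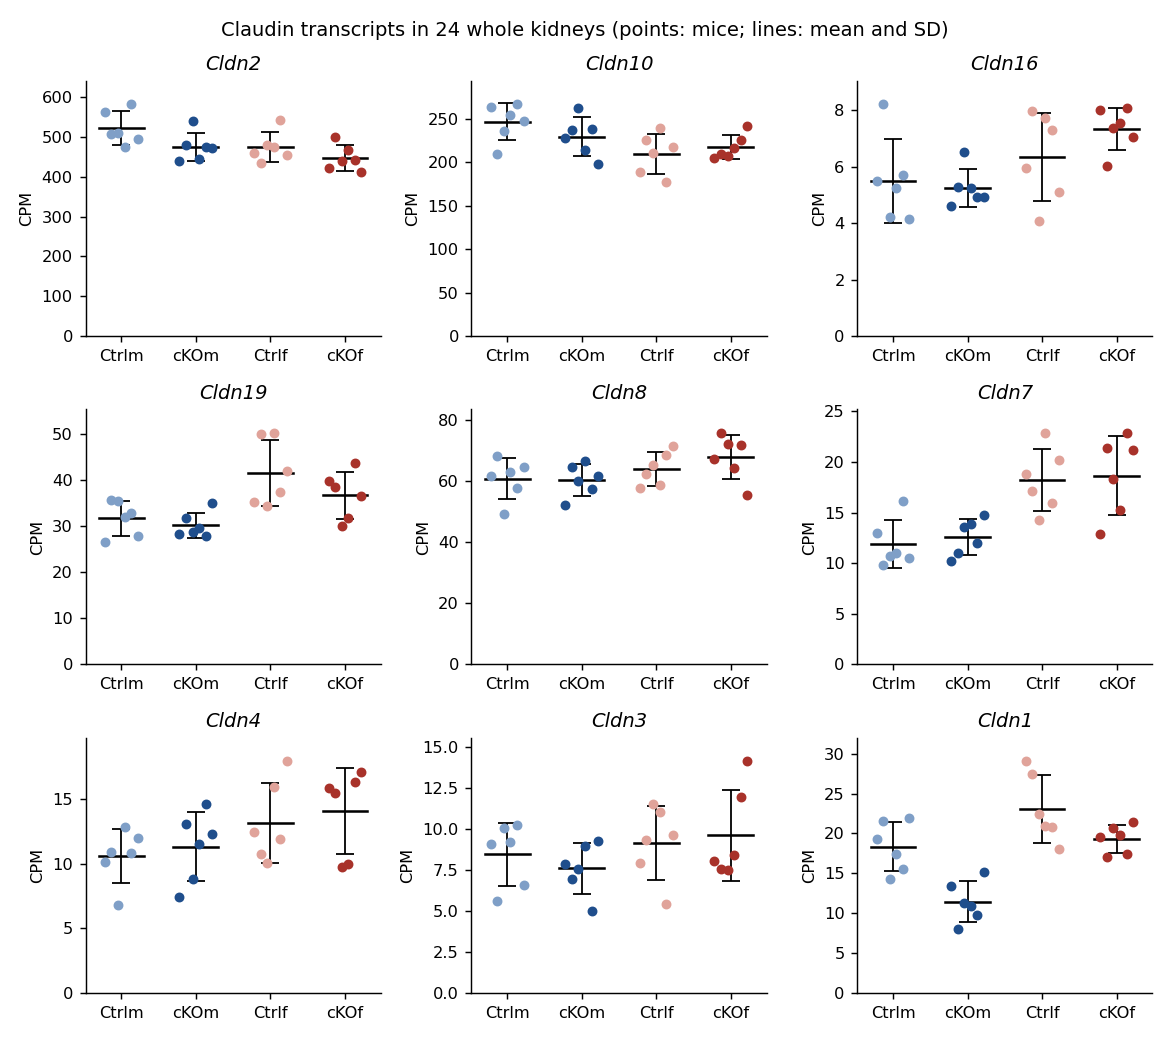
CPM of 9 claudins in each kidney of Ctrlm, cKOm, Ctrlf and cKOf mice, with the mean and SD in black and the axis of each panel starting at 0. The cKOm mice are low for Cldn1 (7.99 to 15.2 CPM), and the mean of Cldn7 is 11.9 CPM in Ctrlm and 18.2 CPM in Ctrlf mice.

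The claudins of the proximal tubule and thin limb did not pass the test in either sex. Cldn2 had 563, 508, 511, 474, 582 and 494 CPM in Ctrlm mice and 440, 479, 540, 445, 474 and 472 CPM in cKOm mice. The groups overlapped, with 3 of the 6 cKOm mice under the lowest Ctrlm mouse. Its log2 fold change was -0.14 in males (95% interval -0.28 to 0.01, edgeR adjusted p = 0.368), which bounds a fall at 0.822 times the control level. In females it was -0.09 (95% interval -0.23 to 0.06, edgeR adjusted p = 0.632).

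The markers of the proximal tubule moved unevenly beside it. In males 4 of 10 were lower and 0 higher in cKOm mice (median log2 fold change -0.13), where 4.9% of all tested genes were lower. These were the endocytic receptor Lrp2 (-0.33), the phosphate transporter Slc34a1 (-0.33), the organic anion transporter Slc22a6 (-0.65) and the amino acid transporter Slc7a13 (-2.26). Of the 6 that did not pass, 4 had values above 0, up to 0.63 for the lactate transporter Slc5a12 (edgeR adjusted p = 0.0512) and 0.20 for the transcription factor Hnf4a. Of the 4 calls, those of Slc22a6 and Slc7a13 held without the 5 kidneys high in liver transcripts. With the liver score as a covariate, the calls of Lrp2, Slc22a6 and Slc7a13 held, and that of Slc34a1 did not (edgeR adjusted p = 0.0940). The log2 CPM of Cldn2 minus the mean log2 CPM of the 10 markers was -0.76 ± 0.13 in Ctrlm and -0.62 ± 0.13 in cKOm mice (n = 6, SD), and the groups overlapped. That difference of 0.13 turned to -0.09 when Slc7a13 was left out of the mean, and was 0.22 against the median of the 10, with overlap in each case, so it has no settled direction.

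Cldn10 has alternative first exons, and the counts pool the transcripts that begin at either of them. The gene lies on the forward strand of chromosome 14 (GRCm38, chr14:118787908-118875489). The coding parts of both first exons are shown because a change from one transcript to the other would not be seen in the counted total. They are taken from the GENCODE M21 transcripts, with the start codon in capitals.

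Cldn10 upstream first exon, chr14:118788157-118788370: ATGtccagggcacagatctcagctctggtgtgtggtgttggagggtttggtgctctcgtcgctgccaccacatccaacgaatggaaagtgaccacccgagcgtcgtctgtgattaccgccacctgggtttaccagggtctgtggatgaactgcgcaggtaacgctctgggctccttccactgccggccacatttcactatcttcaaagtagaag

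Cldn10 downstream first exon, chr14:118854990-118855209: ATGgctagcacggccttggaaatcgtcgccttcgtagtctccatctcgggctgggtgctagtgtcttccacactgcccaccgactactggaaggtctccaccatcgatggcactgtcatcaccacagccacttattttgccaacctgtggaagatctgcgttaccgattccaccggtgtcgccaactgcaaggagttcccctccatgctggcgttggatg

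These stretches of 214 and 220 bases were identical at 46.8% of their aligned positions, and the transcripts shared 3 internal exons. The 250 bases before each start in RefSeq (GRCm38.p6) differed in composition, with 36.0% G and C upstream and 72.4% downstream. GGGCGG is in capitals again.

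Cldn10 upstream promoter, chr14:118787621-118787870: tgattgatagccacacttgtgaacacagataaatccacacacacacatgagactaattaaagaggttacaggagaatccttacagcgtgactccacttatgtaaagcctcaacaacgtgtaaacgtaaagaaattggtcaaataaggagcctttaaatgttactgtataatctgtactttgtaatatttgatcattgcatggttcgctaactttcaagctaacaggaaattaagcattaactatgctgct

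Cldn10 downstream promoter, chr14:118854700-118854949: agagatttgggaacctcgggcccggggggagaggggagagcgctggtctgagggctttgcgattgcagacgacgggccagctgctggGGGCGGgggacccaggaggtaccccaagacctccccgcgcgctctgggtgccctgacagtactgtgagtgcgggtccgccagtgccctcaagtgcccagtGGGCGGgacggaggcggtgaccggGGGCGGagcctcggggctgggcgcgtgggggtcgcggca

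None of the 4 motifs is in the upstream window, and the downstream one holds GGGCGG 3 times, at 163, 63 and 39 bases before the RefSeq start. In GENCODE M21 the downstream first exon begins earlier, at chr14:118854732, inside this window. By that annotation most of the window and all 3 copies of GGGCGG lie within the first exon, not before it.

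In males the pooled level of Cldn10 was 247 ± 21.2 CPM in controls and 230 ± 22.4 CPM with the deletion. In females it was 210 ± 23 CPM and 218 ± 14.1 CPM (n = 6, SD). Its log2 fold change was -0.10 in males (95% interval -0.27 to 0.06, edgeR adjusted p = 0.611) and 0.05 in females (95% interval -0.12 to 0.22, edgeR adjusted p = 0.841). The RPKM ratio of Cldn10 to Cldn2 was 0.608 ± 0.0540 in Ctrlm and 0.621 ± 0.0439 in cKOm mice. For Ctrlf mice it was 0.574 ± 0.0910, and for cKOf mice 0.629 ± 0.0727 (n = 6, SD). The ranges of this ratio overlapped between the genotypes of each sex.

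The claudins of the thick ascending limb did not pass the test with the deletion either. Cldn16 had 5.50, 8.21, 4.20, 5.23, 5.69 and 4.14 CPM in Ctrlm mice and 4.62, 5.26, 6.53, 5.23, 4.91 and 4.92 CPM in cKOm mice. All 6 cKOm mice lay within the range of the controls. In females the values were 5.95, 7.95, 4.06, 7.72, 7.29 and 5.11 CPM in Ctrlf and 7.99, 6.03, 7.38, 7.54, 8.06 and 7.05 CPM in cKOf mice. This gave a log2 fold change of -0.07 in males (95% interval -0.42 to 0.27, edgeR adjusted p = 0.90) and 0.21 in females (95% interval -0.13 to 0.55, edgeR adjusted p = 0.617).

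Cldn19 pairs with Cldn16 in the junction, and its log2 fold change was -0.07 in males (95% interval -0.29 to 0.16, edgeR adjusted p = 0.838) and -0.18 in females (95% interval -0.40 to 0.05, edgeR adjusted p = 0.473). The RPKM ratio of Cldn16 to Cldn19 was 0.632 ± 0.147 in Ctrlm and 0.636 ± 0.104 in cKOm mice. For Ctrlf it was 0.557 ± 0.106, for cKOf mice 0.738 ± 0.122 (n = 6, SD), and the ranges overlapped in both sexes. An antisense gene, Gm12927, overlaps Cldn19 and had 1 to 71 counts per kidney, whereas Cldn19 had 535 to 1166.

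Cldn14 was near the limit of detection. It had 33 counts over all 24 kidneys, of which 9 came from Ctrlm and 17 from cKOm mice, 7 from Ctrlf and 0 from cKOf mice, and 14 kidneys had none. The highest kidney was a cKOm mouse with 7 counts, or 0.320 CPM. A count of 0 in a cKOf kidney allows up to 3 counts. When every gene with a count was tested, Cldn14 did not pass in any comparison. Its lowest edgeR adjusted p was 0.0659, for cKOf against cKOm mice (0.00285 before adjustment), and it was 0.275 for cKOf against Ctrlf mice (0.0198 before adjustment). No fold change is given against the cKOf mice, since all 6 had 0 counts.

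Other genes of the thick ascending limb rose in males while these claudins did not pass the test. Slc12a1, the sodium-potassium-chloride cotransporter, had a log2 fold change of 0.33 (edgeR adjusted p = 0.0116) and Egf, the precursor of epidermal growth factor, of 0.33 (edgeR adjusted p = 0.00388). Of 8 markers of this segment, 2 were higher in cKOm mice and 0 lower (median log2 fold change 0.26), where 667 of the 16092 tested genes were higher. Without the 5 kidneys high in liver transcripts 0 of the 8 passed, with 0.36 for Slc12a1 (edgeR adjusted p = 0.168) and 0.38 for Egf (edgeR adjusted p = 0.0779). In that fit 172 of 15955 genes were higher. With the liver score as a covariate Egf passed (0.425, edgeR adjusted p = 0.0021) and Slc12a1 did not (0.29, edgeR adjusted p = 0.132). There 1 of the 8 markers and 353 of 16092 genes were higher. Measured against the mean of the 8 markers, Cldn10 differed by -0.33 (standard error 0.10), Cldn16 by -0.26 (0.20) and Cldn19 by -0.29 (0.15) between cKOm and Ctrlm mice on the log2 scale. For all 3 the values of the groups overlapped. Measured against the median of the markers, the difference of Cldn10 was -0.37, and the groups did not overlap. How many of all genes would show no overlap on this measure was not computed. Neither measure was taken without the 5 kidneys high in liver transcripts. Cldn10 RNA also comes from the proximal tubule, which these markers do not count. In females, 0 of the 8 markers passed, and the same differences were 0.04, 0.23 and -0.18.

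The 4 claudins of the distal nephron and collecting duct did not pass the test in either sex, and their intervals differed in width. Cldn8, the most abundant of them, was 60.8 ± 6.66 CPM in Ctrlm and 60.5 ± 5.18 CPM in cKOm mice (n = 6, SD). Its log2 fold change of -0.01 had a 95% interval from -0.18 to 0.17 (edgeR adjusted p = 0.981), so that changes beyond 0.880 to 1.12 times lie outside it. In females that of Cldn8 was 0.08 (95% interval -0.09 to 0.26, edgeR adjusted p = 0.727).

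For Cldn7 the log2 fold change was 0.08 in males (95% interval -0.22 to 0.38) and 0.04 in females (95% interval -0.26 to 0.33). Cldn4 had 0.10 in males (95% interval -0.28 to 0.47) and 0.10 in females (95% interval -0.27 to 0.47). Cldn3 had -0.15 in males (95% interval -0.55 to 0.25) and 0.07 in females (95% interval -0.33 to 0.47). For these 3 the edgeR adjusted p values lay between 0.793 and 0.947. The intervals of Cldn3 and Cldn4 would still hold a change of 0.25 on the log2 scale in either direction. The RPKM ratio of Cldn4 to its partner Cldn8 was 0.225 ± 0.0303 in Ctrlm and 0.242 ± 0.0537 in cKOm mice (n = 6, SD).

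Among 9 markers of principal cells, 1 was higher and 1 lower in cKOm mice, where 9.05% of all tested genes passed in either direction. Scnn1b, a subunit of the epithelial sodium channel, had a log2 fold change of 0.35 (edgeR adjusted p = 0.0103), and Aqp4, a basolateral water channel, had one of -1.36 (edgeR adjusted p = 0.0155). The other 7 and all 4 claudins did not pass. Without the 5 kidneys high in liver transcripts 0 of the 9 passed, with 0.40 for Scnn1b (edgeR adjusted p = 0.130) and -1.11 for Aqp4 (edgeR adjusted p = 0.330). In that fit 599 of 15955 genes passed. With the liver score as a covariate both passed, Scnn1b at 0.456 (edgeR adjusted p = 0.00372) and Aqp4 at -1.66 (edgeR adjusted p = 0.0304). There 842 of 16092 genes passed. In females 0 of the 9 markers passed. Over the 9 tested claudins the female count was also 0, with limma-voom and DESeq2 as well, and it was 0 at an unadjusted edgeR p under 0.05, while 0.851% of all genes passed the adjusted threshold.

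Other segments and cell types were described by the same kind of list, where 9.05% of all tested genes passed in males and 0.851% in females. Of 8 markers of the distal convoluted tubule, 0 passed in either sex. Of 7 markers of intercalated cells, the anion exchanger Slc4a1 was lower in both sexes (-0.68 in males and -0.70 in females), Slc26a4 (pendrin) was higher in males (0.47) and the channel Aqp6 was lower in females (-0.48). Of 6 endothelial markers 0 passed in either sex, and of 5 macrophage markers 1, the receptor Csf1r, was lower in males (-0.34) and 0 passed in females. The male calls of Slc26a4 and Csf1r were lost without the 5 kidneys high in liver transcripts, whereas Slc4a1 passed and Aqp6 was lower as well. With the liver score as a covariate, Slc4a1 and Slc26a4 passed in males (Slc26a4 at 0.531, edgeR adjusted p = 0.0150). Slc4a9, also of the intercalated list, was then higher (0.47, edgeR adjusted p = 0.0408), and Csf1r did not pass (edgeR adjusted p = 0.267).

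The urothelium that lines the renal pelvis also carries Cldn4 and Cldn7. Of 7 urothelial markers 0 passed between the genotypes of either sex or between the sexes. Their summed level ranged from 11.7 to 18.9 CPM in Ctrlm, from 8.74 to 19.2 CPM in cKOm, from 11.5 to 31.7 CPM in Ctrlf and from 11.6 to 24.3 CPM in cKOf mice. Their part in the levels of Cldn4 and Cldn7 was not tested. Wbscr25, which is antisense to Cldn3, had 0 to 5 counts per kidney.

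**Figure D3:**
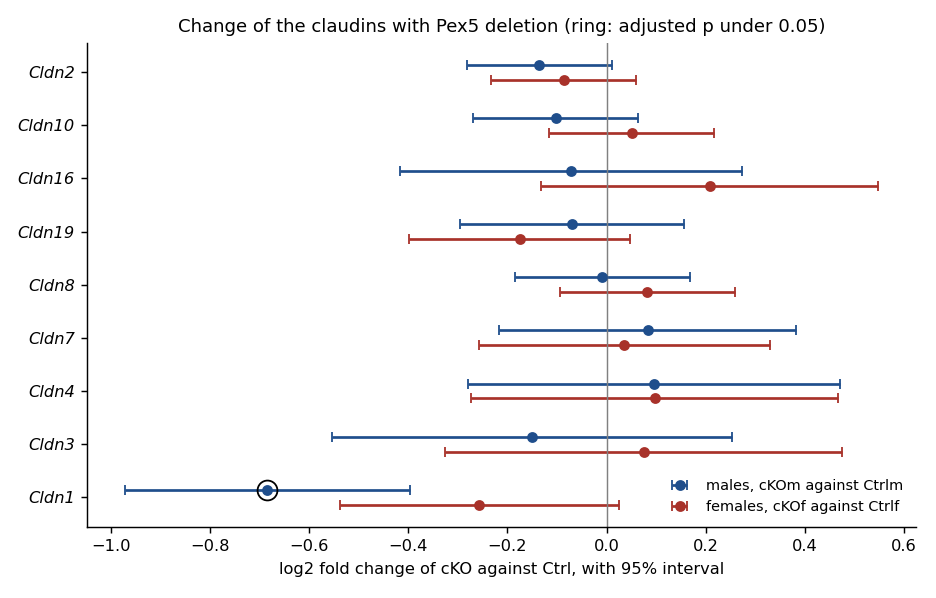
The log2 fold change of cKO against Ctrl mice for 9 claudins, with its 95% interval from edgeR, in males (blue) and females (red). The interval excludes 0 for Cldn1 in males, from -0.97 to -0.40, which is ringed as past the threshold, and includes 0 for the other 17 estimates.

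Differences between the sexes were seen in the controls. Of the 9 tested claudins, 3 passed in Ctrlf against Ctrlm mice, with Cldn7 and Cldn19 higher and Cldn10 lower in females, where 16.8% of all tested genes passed, 8.11% as higher and 8.71% as lower in females. Cldn7 had 13, 9.82, 10.7, 11, 16.2 and 10.6 CPM in Ctrlm mice and 18.8, 17.1, 14.3, 22.9, 16 and 20.2 CPM in Ctrlf mice. A single Ctrlm mouse, at 16.2 CPM, reached the range of the females. The difference of Cldn7 was 0.62 on the log2 scale (SE 0.15, edgeR adjusted p = 0.00306; exact permutation test, p = 0.00649, two-sided, n = 6 per group).

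Cldn7 differed in the same direction among the cKO mice, at 12.6 ± 1.77 CPM in cKOm and 18.7 ± 3.91 CPM in cKOf mice (n = 6, SD; log2 fold change 0.57, edgeR adjusted p = 0.0117). Together with Cldn1 it made 2 of 9 claudins past the threshold between cKOf and cKOm mice, where 8.14% of all genes passed and 4% were higher in cKOf mice. Cldn7 lies on the forward strand of chromosome 11 (GRCm38, chr11:69964779-69967885). Since it was the claudin with the largest difference between control females and males, its RefSeq promoter is shown (GRCm38.p6, chr11:69964529-69964778). TGACCT, the reverse complement of AGGTCA, is in capitals, and the other 3 motifs are not in this window.

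Cldn7 promoter: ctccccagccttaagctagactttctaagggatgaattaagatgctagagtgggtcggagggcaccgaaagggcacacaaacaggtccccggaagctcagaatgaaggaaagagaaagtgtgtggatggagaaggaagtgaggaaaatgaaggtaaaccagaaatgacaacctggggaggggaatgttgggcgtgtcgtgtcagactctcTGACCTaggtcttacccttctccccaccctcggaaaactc

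Cldn19 was 31.7 ± 3.80 CPM in Ctrlm and 41.4 ± 7.2 CPM in Ctrlf mice (n = 6, SD). In Ctrlf, 2 mice, at 49.9 and 50.2 CPM, stood above the rest, and the other 4 lay between 34.2 and 41.9 CPM. The difference of Cldn19 was 0.39 on the log2 scale (SE 0.11, edgeR adjusted p = 0.0132). Without the Ctrlf mouse at 50.2 CPM it was 0.31 and did not pass (edgeR adjusted p = 0.0612). In cKO mice the log2 fold change was 0.28 (edgeR adjusted p = 0.116).

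Cldn10 was lower in Ctrlf mice (log2 fold change -0.23, standard error 0.08), at the edge of the threshold (edgeR adjusted p = 0.0498). It passed in only 8 of 24 fits with a mouse left out, and not with the liver score as a covariate (log2 fold change -0.21, edgeR adjusted p = 0.283). Its log2 fold change between cKOf and cKOm mice was -0.08 (edgeR adjusted p = 0.643). Cldn16 had the next largest difference between the sexes among cKO mice, 0.49 (standard error 0.17, edgeR adjusted p = 0.0719).

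The liver transcripts differed between the control groups, and the sex differences were recomputed without the 5 kidneys that held most of them. The log2 fold change was then 0.42 for Cldn7 (edgeR adjusted p = 0.265), 0.43 for Cldn19 (0.113) and -0.32 for Cldn10 (0.0812). In this fit 0 of 9 claudins passed, and 1570 of 15955 genes did. This comparison rests on 2 Ctrlm mice. With all kidneys and the liver score as a covariate, Cldn7 and Cldn19 passed and Cldn10 did not.

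Markers of several segments also differed between the control sexes. In Ctrlf mice, 6 of 8 markers of the thick ascending limb, 4 of 8 of the distal convoluted tubule, 4 of 9 of principal cells and 3 of 7 of intercalated cells were higher and 0 were lower, where 8.11% of all genes were higher. The median log2 fold change was 0.45 for the thick ascending limb and principal cells, 0.35 for the distal convoluted tubule and 0.33 for intercalated cells. Of the 10 proximal tubule markers 2 were higher and 3 lower, of 6 endothelial markers 1 was higher, and of 5 macrophage markers 0 passed. Without the 5 kidneys high in liver transcripts, 624 of 15955 genes were higher and 946 lower. Of the first 4 lists 2 of 8, 2 of 8, 3 of 9 and 1 of 7 were then higher. In that fit 2 of the 10 proximal markers were lower and 0 of the 6 endothelial markers passed. With the liver score as a covariate, the first 4 lists had 3 of 8, 2 of 8, 3 of 9 and 2 of 7 higher, where 692 of 16092 genes were. Measured against the principal cell markers, Cldn7 differed by 0.23 between Ctrlf and Ctrlm mice, and Cldn8 by -0.31. Measured against the thick ascending limb markers, Cldn19 differed by -0.04. Cldn10 differed by -0.65 (standard error 0.09) on this measure. Its own log2 fold change was -0.23, with overlap of the groups, beside the median of 0.45 of the markers. Cldn10 RNA also comes from the proximal tubule, which these markers do not count. The part of the markers in the sex differences of the claudins was not tested.

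**Figure D4:**
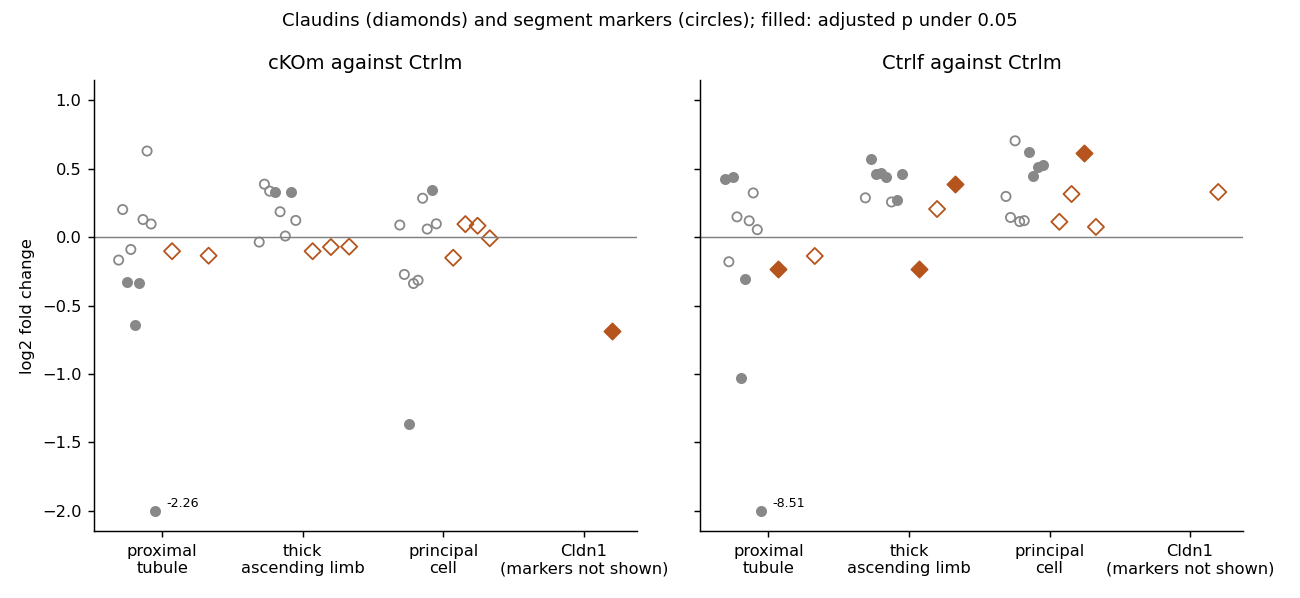
Log2 fold changes of the claudins (diamonds) and of the markers of their segments (circles), in cKOm against Ctrlm mice (left) and Ctrlf against Ctrlm mice (right), with filled symbols past the edgeR threshold. Cldn10 is drawn under both of its segments, Cldn1 stands without markers, and Slc7a13 lies off the scale at the values written beside it (-2.26 and -8.51). On the left Cldn1 is the filled diamond (-0.68), and on the right Cldn7 (0.62), Cldn19 (0.39) and Cldn10 (-0.23).

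The partners of the claudins in the tight junction were examined as a list of 22 genes, all of which were tested. In males 2 of the 22 were higher and 0 lower in cKOm mice, a share near the 9.05% of all genes that passed. These were the scaffold proteins Tjp3 (log2 fold change 0.47, edgeR adjusted p = 0.0412) and Magi1 (0.33, edgeR adjusted p = 0.0429). The transmembrane protein occludin (Ocln) had a log2 fold change of 0.08 and the scaffold Tjp1 (ZO-1) of 0.25, and neither passed. In females 0 of the 22 passed between the genotypes. In Ctrlf against Ctrlm mice 3 were higher, among them Tjp3 (0.52) and the tricellular junction protein Ildr1 (0.49), and the polarity scaffold Patj was lower (-0.23), again a share near that of all genes (16.8%). Without the 5 kidneys high in liver transcripts, 0 of the 22 passed in males and 0 between the control sexes, where 599 and 1570 of 15955 genes did. With the liver score as a covariate, 0 passed in males and 2 were higher in Ctrlf than in Ctrlm mice, where 842 and 1471 of 16092 genes passed.

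The genes of several claudins are neighbours. Cldn1 and Cldn16 lie 91.3 kb apart on chromosome 16 and are read away from each other, and Cldn4 and Cldn3 lie 39.3 kb apart on chromosome 5 in the same arrangement. In males the log2 fold change of Cldn16 was -0.07 beside the -0.68 of Cldn1. After the group means were removed, the log2 CPM of Cldn1 and Cldn16 had a Pearson r of 0.15 over 24 kidneys, and that of Cldn4 and Cldn3 an r of 0.01. All values of a kidney come from the same library. Of 36 pairs of claudins, none reached an r of 0.5. The highest were Cldn3 with Cldn10 (0.49), Cldn3 with Cldn7 (0.46) and Cldn16 with Cldn19 (0.40).

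The genes whose residual levels followed each claudin most closely were found over the same 24 kidneys, among genes with a mean of at least 5 CPM. For Cldn1 they were Hao2 (r = 0.73), a peroxisomal hydroxyacid oxidase, Bmp6 (r = 0.72) and Aspg (r = 0.70). For Cldn10 they were Msra (r = 0.86), Slc13a3, a dicarboxylate transporter of the proximal tubule (r = 0.85), and Mrps25 (r = 0.84). For Cldn4 they were Psca (r = 0.80), Bcam (r = 0.80) and Fam174b (r = 0.79). For Cldn7 they were Ctsh (r = 0.79), Npdc1 (r = 0.78) and the keratin Krt7 (r = 0.77). For Cldn3 they were Tpgs1 (r = 0.88), Abhd14b (r = 0.86) and Snrpf (r = 0.84), and for Cldn8 Atp10b (r = 0.76), Twsg1 (r = 0.76) and Hacd4 (r = 0.75). For Cldn2 they included Ldah (r = 0.77) and Eif3j1 (r = 0.71), and for Cldn16 Smap1 (r = 0.74), Cdc42 (r = 0.73) and Hnrnpab (r = 0.72). For Cldn19 they were Ptk7 (r = 0.74), Cyp2j13 (r = 0.68) and Vps51 (r = 0.67). These values were picked as the highest among all genes and describe these kidneys.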

How the data were processed

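RNA of whole kidneys from 24 mice was prepared with a stranded mRNA kit. The authors deposited 1 file per kidney of whole-number counts per gene, without normalization, with cutadapt 1.8, STAR 2.5.3a and HTSeq 0.9.1 and the build GRCm38 named in their processing notes. The strand setting of the counting is not given in the sources used here. The 5 closing lines of each file were set aside. Of all entries of a file, they held 4.45% to 6.66% for no gene, 0.706% to 0.939% for ambiguous and 26.9% to 34.8% for not uniquely aligned reads. The labels give ZT3 for the experiments and ZT9 for tissue collection.

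Counts were tested in R 4.3.3 with edgeR 4.0.16 (TMM, 1 model of 4 groups, quasi-likelihood tests), for genes that reached 1 CPM in 1 kidney or more. Benjamini-Hochberg adjustment pooled the tests of both sexes, while the interaction and each comparison of females with males were adjusted on their own, at a threshold of 0.05. The comparison of cKOf with cKOm mice was added after the data were seen. RPKM used the exon length in GENCODE M21, and log2 CPM a prior count of 2. All 10 claudins are named, with the 3 genes most like each of the 9 tested, and from other lists the defining genes and up to 4 members past the threshold. Results for 1 gene list and for 1 of the genes most like Cldn2 are not reported here. The members and lists were chosen with earlier results of these data known. Mice that share a replicate number across groups are different animals and were not paired. The labels number the replicates but say nothing more of them, so p values measure the spread between these samples.

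In simulated data, genes were changed by a log2 step of 1. The male test on 15702 genes recovered 143 of 196 with 0 false calls, and the female test on 15690 genes recovered 139 of 197 with 3 false calls. Alternatives were limma-voom (limma 3.58.1), DESeq2 1.42.0, RLE normalization, 2 other filters, each sex alone, adjustment within a comparison, a replicate block, a liver score (the mean log2 CPM of the liver markers in each kidney) as a covariate and each mouse left out. A fit without the 5 kidneys highest in liver transcripts was added after the data were seen. Promoters are from RefSeq GRCm38.p6.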

Additional observations from a re-analysis of the deposited data

Results flagged for a closer look

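Within each group of 6 mice, the highest and lowest kidney of each claudin was compared with the rest by Dixon's criterion. Of 39 groups examined, 2 had a kidney that stood apart, and chance alone flags about 1 in 20. Cldn14 was 0.297 CPM in a single Ctrlm mouse, against at most 0.0659 CPM in the other 5, and these values rest on 6 counts or fewer. Cldn16 was 6.53 CPM in a single cKOm mouse, against at most 5.26 CPM in the other 5. The log2 fold change of Cldn16 did not pass the threshold with or without that mouse.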

How the results depend on the processing

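The fall of Cldn1 in males passed the threshold under 9 of 10 alternatives and in all 24 fits with a mouse left out. The exception, without the 5 kidneys highest in liver transcripts, gave -0.74 (edgeR adjusted p = 0.0639), with 0 claudins past the threshold in males and 0 in Ctrlf against Ctrlm mice. That fit keeps 2 Ctrlm mice. Leaving out a mouse gave 1 claudin in males, 0 in females, 0 for the interaction, 2 to 3 in Ctrlf against Ctrlm and 2 to 3 in cKOf against cKOm mice. The third in the last was Cldn16 without Ctrlm mouse 2 (log2 fold change 0.49, edgeR adjusted p = 0.0433). Some changes near 0 turned direction without passing. In males, the liver covariate gave 0.0491 for Cldn16, 0.0083 for Cldn19 and 0.0955 for Cldn3, and the fit without the 5 kidneys gave 0.0582 for Cldn16, -0.0549 for Cldn4 and -0.15 for Cldn7. With a mouse left out, the male values ranged from -0.17 to 0.0832 for Cldn16, from -0.0127 to 0.19 for Cldn4 and from -0.0622 to 0.0305 for Cldn8, and the female values from -0.067 to 0.15 for Cldn3 and from -0.0312 to 0.12 for Cldn7. Against the mean of the 10 proximal tubule markers, Cldn2 differed by 0.748 between Ctrlf and Ctrlm and by 0.645 between cKOf and cKOm mice. Without Slc7a13 in that mean, a choice made after seeing the data, these differences turned to -0.14 and -0.0946. Between cKOm and Ctrlm mice the difference was 0.13 with Slc7a13 and -0.0903 without it. Against the median of these markers instead of their mean, Cldn2 differed by -0.0504 between Ctrlf and Ctrlm and by -0.34 between cKOf and cKOm mice. The mean holds Slc7a13, with a log2 fold change of -8.51 between control females and males.

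Over all genes, 1456 were called in males, 842 with the liver covariate, 599 without the 5 kidneys and 1152 to 1726 with a mouse left out. In females 137 were called, 43 with adjustment within the comparison, 83 without the 5 kidneys and 108 to 173 with a mouse left out. The interaction gave 372, DESeq2 574, and 282 to 476 with a mouse left out. Ctrlf against Ctrlm gave 2707, the liver covariate 1471, the fit without the 5 kidneys 1570, and 2333 to 2936 with a mouse left out. cKOf against cKOm gave 1310, and 1040 to 1506 with a mouse left out. The causes were not tested. The replicate numbers did not pair the mice (36 same-numbered pairs, r from -0.20 to 0.12, 3 above 0.1). With the number as a block, 1268 genes were called in males, and Cldn10 in Ctrlf against Ctrlm mice did not pass (log2 fold change -0.23, edgeR adjusted p = 0.0897). No other call of a claudin changed with the block.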

Other observations

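The files list 24 other Cldn genes, of which 7 were tested. None of the 7 passed the threshold between the genotypes of either sex. Cldn12, a claudin of broad distribution, was the most abundant of them, at 148 ± 12.5 CPM in Ctrlm and 164 ± 12.2 CPM in cKOm mice (n = 6, SD; log2 fold change 0.15, edgeR adjusted p = 0.410). Cldn5, the claudin of endothelial junctions, was 6.87 ± 1.03 CPM in Ctrlm and 6.72 ± 1.02 CPM in cKOm mice (log2 fold change -0.03, edgeR adjusted p = 0.954). Cldn18, a claudin known from stomach and lung, was low in the kidneys of all groups. It was 1.58 ± 0.508 CPM in Ctrlm and 1.58 ± 0.520 CPM in cKOm mice, against 0.0804 ± 0.0837 CPM in Ctrlf and 0.151 ± 0.102 CPM in cKOf mice (n = 6, SD), where 3 of the 12 females had 0 counts. Cldn18 reached 1 CPM only in males, and both female means are near the floor of 3 counts, so these levels are a description with no test.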
